A study of Mus musculus with 12 samples.

Results

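The genes of the nucleus that encode the respiratory chain were examined in intestinal stem cells (ISCs) of young and old mice. They were taken as the protein-coding genes whose symbols carry the names of subunits of complexes I to V or of cytochrome c (Ndufa, Ndufb, Ndufc, Ndufs or Ndufv with a number, Sdha to Sdhd, Uqcr, Cyc1, Cycs, Cox4 to Cox8, and Atp5). Of the 54232 genes in the count table, 87 met this rule. They comprised 35 genes of complex I, 4 of complex II, 9 of complex III, 18 of complex IV and 18 of complex V, the cytochrome c gene Cycs, and the pair Ndufa4 and Ndufa4l2, which was kept apart because the product of Ndufa4 was named after complex I and later placed with complex IV. The rule used names and not measured values, but this group of genes was chosen with earlier results of these data known.

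The respiratory chain lies in the inner mitochondrial membrane. Complex I takes electrons from NADH and complex II takes them from succinate, both pass them through ubiquinone to complex III, and cytochrome c carries them on to complex IV, where oxygen is reduced. The protons pumped by complexes I, III and IV drive ATP synthesis by complex V. Most subunits are encoded in the nucleus, a core of complexes I, III, IV and V is encoded by the mitochondrial genome, and complex II is encoded by the nucleus alone. In the intestinal crypt, ISCs are known for their use of mitochondrial respiration, whereas the neighbouring Paneth cells lean on glycolysis.

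Expression had been read by 3′ RNA sequencing, a method that counts reads near the polyadenylated end of a transcript, in ISCs sorted from crypts of the small intestine of single female mice. There were 12 libraries in 4 groups of 3. The SM6 groups came from wild-type (WT) mice of the strain C57/Bl6 aged 2 months (young) or 22 months (old), and SM6 stands for sorting by surface markers. The Lgr5-GFP groups came from mice of the same ages with the allele Lgr5-EGFP-IRES-CreERT, in which the promoter of Lgr5, a receptor gene of ISCs, drives a fluorescent protein and an inducible recombinase; no inducing agent is named. All 12 libraries carry the surface marker sort in their labels, but sorting by fluorescence is named for the reporter mice in the supplement, and strain and isolation change together, so that they cannot be told apart. The question was whether the transcripts of the respiratory chain differed with age, and whether they did so alike in both isolations and in all complexes.

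Library totals ran from 970472 to 3815425 counts. Levels are given as CPM, the usual unit of counts relative to the library total, after scaling with the trimmed mean of M values (TMM). All 11 genes of a stem cell list, which includes Lgr5 and Olfm4, passed the filter, with summed levels of 8341 to 16268 CPM. Markers of other crypt cells were present too, with summed levels of 12849 to 329780.1 CPM for 10 Paneth cell genes, 3153 to 18192 for 8 goblet cell genes, 1893 to 12009 for 13 enterocyte genes and 72.2 to 3122 for 8 enteroendocrine genes, whereas 6 tuft cell genes and 9 immune genes stayed at 0.777 to 47.7 and 5.77 to 42.5 CPM. A pair of libraries stood apart by the share of counts taken by defensins, the antimicrobial peptides of Paneth cells: 23.2% in Lgr5-GFP young replicate 1 and 23.1% in SM6 old replicate 3, against 1.26% to 12.4% in the others. In bulk samples, fewer cells of a type and less RNA per cell cannot be told apart. The age comparisons and the marker lists are given with and without them.

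Of the 87 genes, 80 passed the filter on low counts and were tested. The other 7 held at most 3 counts over all libraries: Cox6a2 had 3 and Cox4i2 had 2, and Cox7b2, Cox8b, Cox8c, Ndufa4l2 and a further gene identifier with the symbol Atp5o had 0. Among the tested genes, 69 had a mean level of at least 100 CPM, and 1745 of all 13368 tested genes did.

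In ISCs isolated with SM6, transcripts of the respiratory chain were mostly a little more abundant in old than in young mice, and 1 gene passed the test. The log2 fold change was above 0 in 71 of the 80 genes, as it was in 49.1% of all tested genes and in 55.7% of those with at least 100 CPM. The median over the 80 genes was 0.21, or 1.16-fold, against -0.01 over all tested genes and 0.04 over those with at least 100 CPM. Cox7a1, a subunit isoform of complex IV, was called higher in old at an adjusted p under 0.05 (edgeR's quasi-likelihood fit with Benjamini-Hochberg adjustment), where 2.42% of all tested genes were called in either direction and 0.643% were called higher. DESeq2 and limma-voom called this gene alone as well, against 2.94% and 3.44% of all tested genes. A further 11 genes had an unadjusted p under 0.05, so that 12 did in all, each with a higher level in old, against 13.1% of all tested genes in either direction and 5.45% higher. In 28 genes all 3 old libraries lay above all 3 young ones, against 7.75% of all tested genes, and in 0 genes did they all lie below, against 9.78%. Of the genes with at least 100 CPM, 13.8% lay above. Without SM6 old replicate 3, the library with much defensin RNA, the median was 0.27, and 50 genes lay above, against 15.3% of all tested genes and 29.0% of those with at least 100 CPM at that setting. Without SM6 old replicate 2 the median was 0.14 with 67 genes above 0, and with library totals alone it was 0.070 with 57 above 0, that of all tested genes being -0.16.

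**Figure D1:**
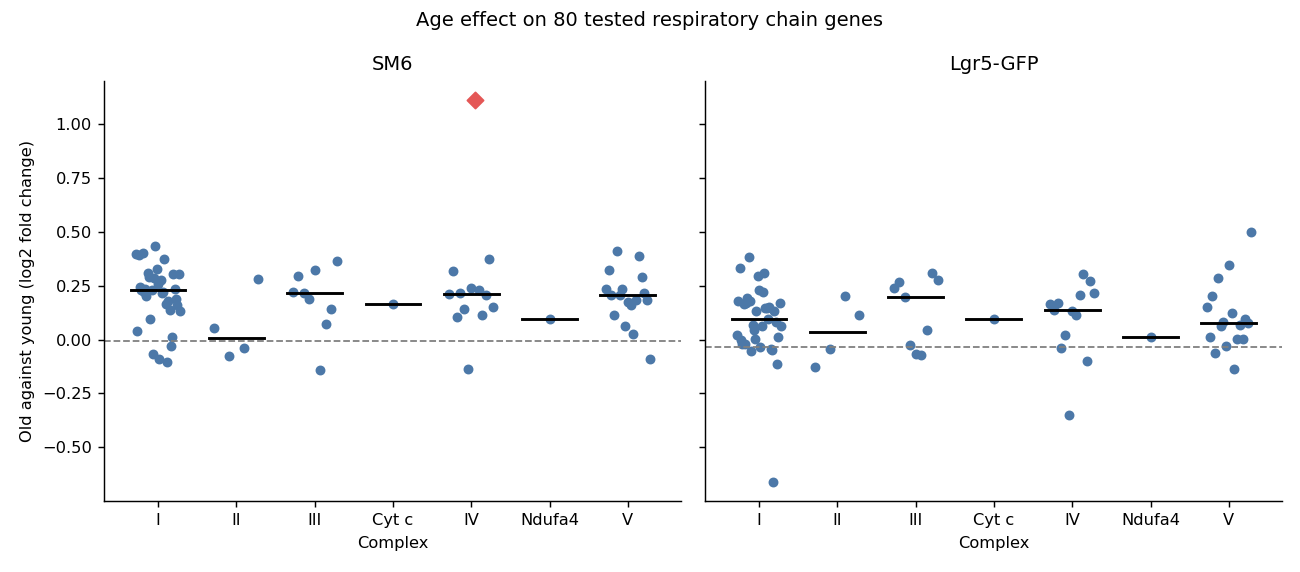
Log2 fold change of old against young for each of the 80 tested genes (points), grouped by complex, in SM6 (left) and Lgr5-GFP (right). Black bars are medians over the genes of a complex, the dashed line is the median of all 13368 tested genes, and the red diamond is Cox7a1, the called gene. The points lie mostly above the dashed line in SM6, with complex II around it, and closer to the line in Lgr5-GFP.

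In Lgr5-GFP the difference with age had a smaller median and depended on single libraries. The log2 fold change was above 0 in 60 of the 80 genes, against 46.3% of all tested genes and 44.8% of those with at least 100 CPM. The median was 0.10, or 1.07-fold, against -0.03 over all tested genes. By edgeR 0 genes were called, against 0.494% of all tested genes, and 2 genes, Ndufa7 and Ndufb9, had an unadjusted p under 0.05, against 9.78%. DESeq2 and limma-voom also called 0, against 0.636% and 0.546%. In 10 genes the old libraries all lay above the young ones, or 12.5%, against 6.6% of all tested genes and 10.7% of those with at least 100 CPM, and in 0 genes below, against 7.95%. Without Lgr5-GFP old replicate 2, 25 genes lay above, or 31.25%, against 11.6% and 16.5%. Without Lgr5-GFP young replicate 2, 22 did, or 27.5%, against 10.5% and 17.5%. Leaving out Lgr5-GFP young replicate 1, with its high defensin share, took the count above 0 to 46 and the median to 0.018, whereas leaving out Lgr5-GFP old replicate 2, the library with the highest summed enterocyte level, took them to 66 and 0.17. They were 65 and 0.15 without Lgr5-GFP young replicate 2, and 53 and 0.062 without Lgr5-GFP old replicate 3. With the defensin share as a covariate 40 genes were above 0 with a median of 0.00025, and with library totals alone 78 were above 0 with a median of 0.28, that of all tested genes being 0.16.

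Between the isolations, 56 of the 80 genes had a log2 fold change above 0 in both, against 24.3% of all tested genes and 29.9% of those with at least 100 CPM. In 5 genes all old libraries lay above all young ones in both isolations: Ndufa7, Ndufb9 and Ndufv2 of complex I and Uqcr10 and Uqcrq of complex III, which were named here after their values were seen. This held for 0.748% of all tested genes and 1.32% of those with at least 100 CPM. Averaged over both isolations, the median was 0.16 against -0.03 over all tested genes, 70 genes were above 0, against 46.8%, and 16 had an unadjusted p under 0.05, all higher, against 12.8% in either direction and 4.77% higher. By edgeR 0 genes were called, against 2.66% of all tested genes. The call depended on the test: DESeq2 called 7 genes (Ndufa7, Ndufa11, Ndufb9, Uqcr10, Uqcrq, Cox7c and Atp5e), against 3.0% of all tested genes, and limma-voom called 6 (Ndufa7, Uqcr10, Uqcrq, Cox7a1, Cox7c and Atp5e), against 3.47%.

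The age effect was larger in SM6 than in Lgr5-GFP in 63 of the 80 genes, leaving 17 with a positive difference, against 50.2% of all tested genes. The median difference, Lgr5-GFP minus SM6, was -0.11 on the log2 scale against 0.00 over all tested genes. Omitting Lgr5-GFP old replicate 2 took it to -0.038, omitting SM6 old replicate 2 to -0.050, and omitting Lgr5-GFP young replicate 2 or 1 to -0.046 or -0.19, and the count above 0 ran from 14 to 32 with 1 library left out. As a test of the difference, the interaction called 0 genes by edgeR, against 0.658% of all tested genes, and 1 gene, Cox7a1, had an unadjusted p under 0.05, against 9.42%. DESeq2 and limma-voom called 0, against 0.703% and 0.501%. The sign of the median difference depended on the scaling: with library totals alone it was 0.22, while the median of all tested genes moved to 0.35.

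The levels were also summed over genes. For all 87 genes, the sums in SM6 were 43822, 44350.2 and 44877 CPM in young and 51380.4, 56470.4 and 47456 in old, or 44349.9 ± 527 and 51769 ± 4519.8 (SD, n = 3), and did not overlap. In Lgr5-GFP they were 39119, 47732 and 45343 CPM in young and 48435, 43428 and 50268 in old, and overlapped. The separation in SM6 depended on the TMM scaling. As percent of all counts, the SM6 sums were 4.39, 4.60 and 4.90 in young and 5.23, 5.65 and 3.81 in old, and overlapped. Over the 12 libraries, SM6 old replicate 2 held the highest level of 47 of the 80 tested genes, and Lgr5-GFP young replicate 1 held the lowest of 44. The libraries with the lowest sum in SM6 old and in Lgr5-GFP young were those with the high defensin shares, and their part in these results was not tested beyond leaving them out.

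**Figure D2:**
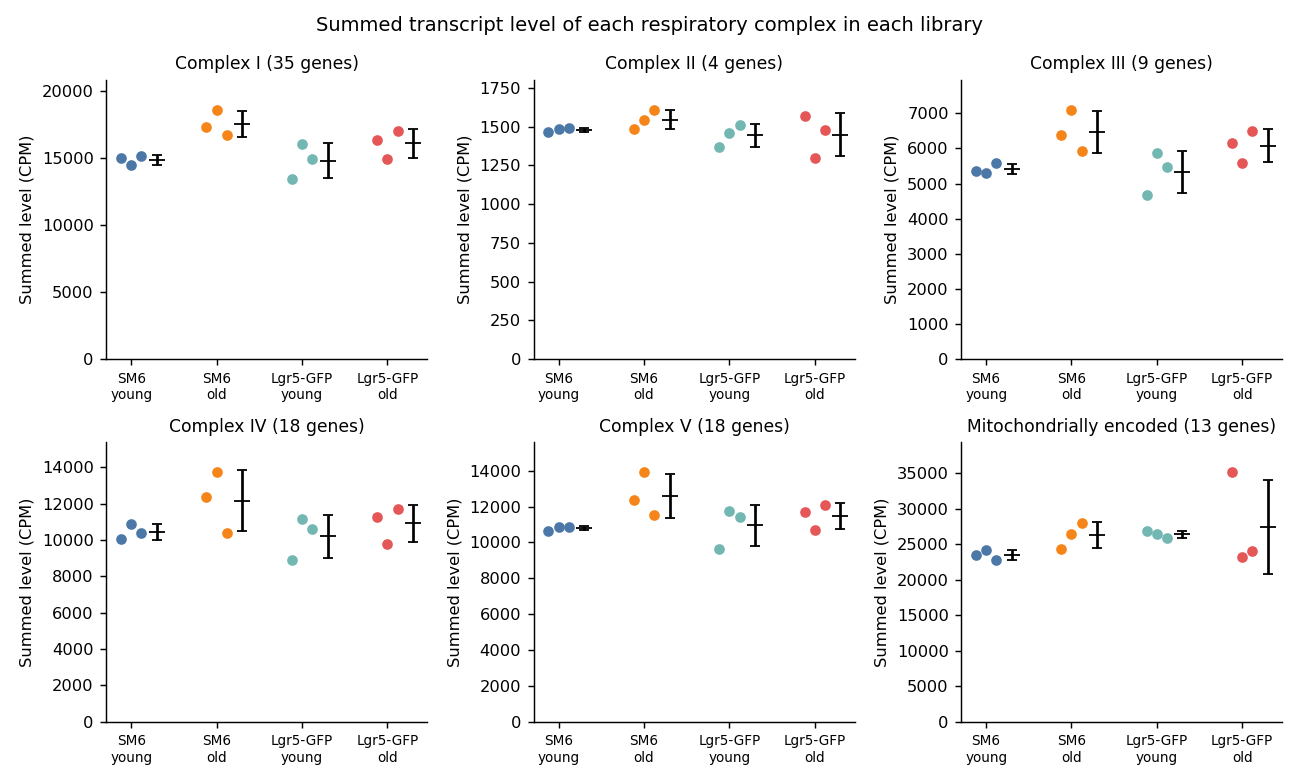
Summed level in CPM (y axis, from 0) of the nuclear genes of each complex and of the mitochondrially encoded genes in the 12 libraries. Coloured points are libraries, and the black bars give the mean and SD (n = 3) of each group. In SM6 the old libraries lie above the young ones for complexes I, III and V and for the mitochondrially encoded genes, and in Lgr5-GFP old and young overlap in every panel. The separation in SM6 depends on the TMM scaling, and as percent of all counts old and young overlap in these panels too.

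Complex I is the largest of the complexes and the entry point for electrons from NADH. Of its 35 genes, 31 had a log2 fold change above 0 in SM6, with a median of 0.23, and 17 had old libraries that all lay above the young ones, against 7.75% of all tested genes and 13.8% of those with at least 100 CPM. In Lgr5-GFP 26 were above 0, with a median of 0.10, and in 6 the old libraries all lay above, against 6.6% and 10.7%. The 7 core subunits, which carry the flavin and the iron-sulphur clusters, showed median changes of 0.18 with SM6 and 0.08 with Lgr5-GFP, and the 28 accessory subunits, which surround this core, had 0.23 and 0.13.

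Ndufb3, an accessory subunit of the membrane arm, had the largest log2 fold change of complex I in SM6. Its levels were 151, 174 and 162 CPM (young) and 247, 221 and 191 (old) with SM6, and 153, 192 and 199 (young) and 197, 181 and 218 (old) with Lgr5-GFP. Old and young did not overlap in SM6 and overlapped in Lgr5-GFP, and the log2 fold change in SM6 was 0.44 (SE 0.17, Benjamini-Hochberg adjusted p from edgeR's quasi-likelihood fit = 0.218). Ndufa11, an accessory subunit at the junction of the arms of complex I, led the complex on average over both isolations. Its levels were 273, 235 and 274 CPM (young) and 322, 371 and 334 (old) with SM6, and 223, 309 and 255 (young) and 299.7, 320.2 and 368 (old) with Lgr5-GFP. In Lgr5-GFP 1 young library lay within the old ones, and the average log2 fold change was 0.36 (SE 0.12, edgeR adjusted p = 0.113).

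Ndufa7, also an accessory subunit, had the largest log2 fold change of complex I in Lgr5-GFP. It was measured at 821, 895 and 726 CPM in Lgr5-GFP young and 993, 1092 and 1103 in Lgr5-GFP old, and at 808, 747 and 899.8 in SM6 young and 979.7, 1037 and 1023 in SM6 old. All old libraries lay above all young ones within each isolation, with log2 fold changes of 0.38 (SE 0.15, edgeR adjusted p = 0.387) in Lgr5-GFP and 0.31 (SE 0.15, edgeR adjusted p = 0.398) in SM6. Among the core subunits, Ndufs1, which holds iron-sulphur clusters, had the smallest value of the complex in SM6, -0.10 (SE 0.17), and an average of -0.0033. Ndufv1, which binds NADH, had an average of 0.08 (SE 0.12). The lowest value of complex I in Lgr5-GFP and on average was that of Ndufs5, -0.66 (SE 0.59) and -0.32 (SE 0.38), a gene with a mean of only 6.50 CPM. With 1 library left out these ran from -0.99 (without Lgr5-GFP old replicate 3) to -0.35 (without Lgr5-GFP old replicate 2) and from -0.49 (without SM6 young replicate 1) to -0.065 (without SM6 young replicate 3).

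Complex II, succinate dehydrogenase, links the citric acid cycle to the chain. Its 4 genes showed no common direction, with 2 above 0 and 2 below in each isolation and a median change of 0.01 with SM6 and 0.04 with Lgr5-GFP. The summed level was 1481 ± 12.6 CPM in SM6 young and 1546 ± 62.8 in SM6 old, and 1446 ± 74.4 and 1449 ± 137 in Lgr5-GFP (SD, n = 3). Sdhd, a membrane anchor, was measured at 372, 332 and 379 CPM in SM6 young and 434, 441 and 440.4 in SM6 old and did not overlap, with a log2 fold change of 0.28 (SE 0.16, edgeR adjusted p = 0.482). Sdhc, the other anchor, had the largest value in Lgr5-GFP, 0.20 (SE 0.17, edgeR adjusted p = 0.761). The catalytic subunits had values near 0: the iron-sulphur subunit Sdhb had -0.08 (SE 0.15) in SM6 and -0.04 (SE 0.15) in Lgr5-GFP, and the flavoprotein Sdha had 0.05 (SE 0.16) and -0.13 (SE 0.16). With 4 genes, and no test between complexes, a difference between complex II and the others was not established.

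Complex III passes electrons from ubiquinol to cytochrome c. In SM6, 8 of its 9 genes were above 0, with a median of 0.22, and in Lgr5-GFP 6 were, with a median of 0.20. Uqcrq, a small subunit known as a ubiquinone-binding protein, was measured at 1079, 1123 and 1143 CPM (young) and 1457, 1557 and 1295 (old) with SM6, and at 984, 1242 and 1172 (young) and 1294, 1258 and 1556 (old) with Lgr5-GFP. Old lay above young in all libraries of each isolation, with an average log2 fold change of 0.32 (SE 0.11, edgeR adjusted p = 0.165). Uqcr10, another small subunit, was measured at 972, 932 and 1104 and 1179, 1313 and 1201 CPM in SM6 and 835, 959 and 1011 and 1141, 1029 and 1205 in Lgr5-GFP, again without overlap, with an average of 0.28 (SE 0.11, edgeR adjusted p = 0.231). Uqcrh, the hinge protein, had the largest value in Lgr5-GFP, 0.31 (SE 0.19, edgeR adjusted p = 0.639). Of the subunits that carry electrons, Cyc1, cytochrome c1, had an average of 0.23 (SE 0.11, edgeR adjusted p = 0.379), and Uqcrfs1, the Rieske iron-sulphur protein, had 0.06 (SE 0.11). Cycs, the mobile carrier to complex IV, was measured at 71.4, 69.6 and 85.7 CPM (young) and 87.0, 88.0 and 78.8 (old) with SM6, and 75.7, 84.0 and 83.0 (young) and 78.4, 75.4 and 106 (old) with Lgr5-GFP, and overlapped between the ages in both isolations, with an average of 0.13 (SE 0.13).

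Complex IV, cytochrome c oxidase, has subunits that exist as isoforms used in different tissues. In SM6, 12 of its 13 tested genes were above 0, with a median of 0.21, and in Lgr5-GFP 10 were, with a median of 0.14. Cox4i1 and Cox6a1, the widely used isoforms of their subunits, had averages of 0.19 (SE 0.12) and 0.09 (SE 0.11). Their partners Cox4i2, known from lung, and Cox6a2, known from heart and skeletal muscle, were among the genes at no more than 3 counts, as were Cox7b2, Cox8b and Cox8c beside Cox7b and Cox8a, which had averages of 0.05 (SE 0.14) and 0.18 (SE 0.12). Ndufa4, which was kept apart, had 0.05 (SE 0.11), and its partner Ndufa4l2 was at 0 counts. Cox6b1 had an average of 0.08 (SE 0.11). Its testis isoform Cox6b2 was detected at a mean of 20.7 CPM, with -0.24 (SE 0.32), the lowest value of the complex, and spread widely within Lgr5-GFP old, at 8.64, 36.5 and 3.85 CPM. Its average was -0.90 without Lgr5-GFP old replicate 2 and -0.032 without Lgr5-GFP old replicate 3. Cox7c, a subunit without such isoforms, was measured at 995, 1171 and 1061 CPM (young) and 1466, 1475 and 1244 (old) with SM6, and 871, 1146 and 1095 (young) and 1258, 1088 and 1411 (old) with Lgr5-GFP. The ages did not overlap in SM6, and the average was 0.32 (SE 0.12, edgeR adjusted p = 0.182).

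Cox7a1 (ENSMUSG00000074218, GRCm38 chromosome 7, 30184144 to 30186078, plus strand) is the isoform of subunit 7a known from heart and skeletal muscle, whereas Cox7a2 is used widely and Cox7a2l takes part in the joining of complexes III and IV. Cox7a1 had 62, 43 and 55 counts in SM6 young and 126, 98 and 66 in SM6 old, or 37.5, 23.8 and 39.6 and 97.9, 66.3 and 52.6 CPM. In Lgr5-GFP it had 31.4, 31.1 and 38.8 CPM in young and 50.5, 26.7 and 31.8 in old. All old SM6 libraries lay above the other 9 libraries. The level in SM6 rose from 33.6 ± 8.62 to 72.3 ± 23.2 CPM (SD over 3 libraries), or by 1.11 on the log2 scale (SE 0.27, Benjamini-Hochberg adjusted p from edgeR's quasi-likelihood fit = 0.0224). In Lgr5-GFP the log2 fold change was 0.12 (SE 0.28, edgeR adjusted p = 0.949), and Lgr5-GFP minus SM6 differed by -0.996 (SE 0.38, edgeR adjusted p = 0.388).

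The SM6 old libraries with more Cox7a1 also had more enterocyte RNA. In replicates 1, 2 and 3 the 13 enterocyte genes summed to 9543, 5066 and 2713 CPM, against 2192, 2046 and 2154 in SM6 young. With the enterocyte level as a covariate, the log2 fold change of Cox7a1 was 0.99 and the adjusted p was 0.171 (edgeR). The largest part of this sum was Fabp1, a fatty acid binding protein, at 5546, 1829 and 1024 CPM in SM6 old and 515, 398 and 414 in SM6 young, and 12 of the 13 genes had a log2 fold change above 0. In Lgr5-GFP old replicate 2, which had the highest sum of all, 12009 CPM, Cox7a1 was at 26.7 CPM. There Fabp1 alone made up 9819.7 CPM, and 10 of the 13 enterocyte genes had a log2 fold change below 0 in Lgr5-GFP, so that the sum does not stand for the whole list. The call was also lost without SM6 old replicate 1 (0.85, edgeR adjusted p = 0.189), without SM6 old replicate 2 (1.17, edgeR adjusted p = 0.0537) and without SM6 young replicate 2 (0.91, edgeR adjusted p = 0.179), and with scaling by library totals alone (0.98, edgeR adjusted p = 0.0615). Cox7a2 had 671, 786 and 722 CPM in SM6 young and 782, 1028 and 747 in SM6 old, and 533, 746 and 653 and 698, 716 and 813 in Lgr5-GFP, with an average log2 fold change of 0.22 (SE 0.12, edgeR adjusted p = 0.476). For Cox7a2l, which had the largest value of the complex in Lgr5-GFP, this was 0.30 (SE 0.16, edgeR adjusted p = 0.573) in Lgr5-GFP and 0.21 (SE 0.12) on average.

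**Figure D3:**
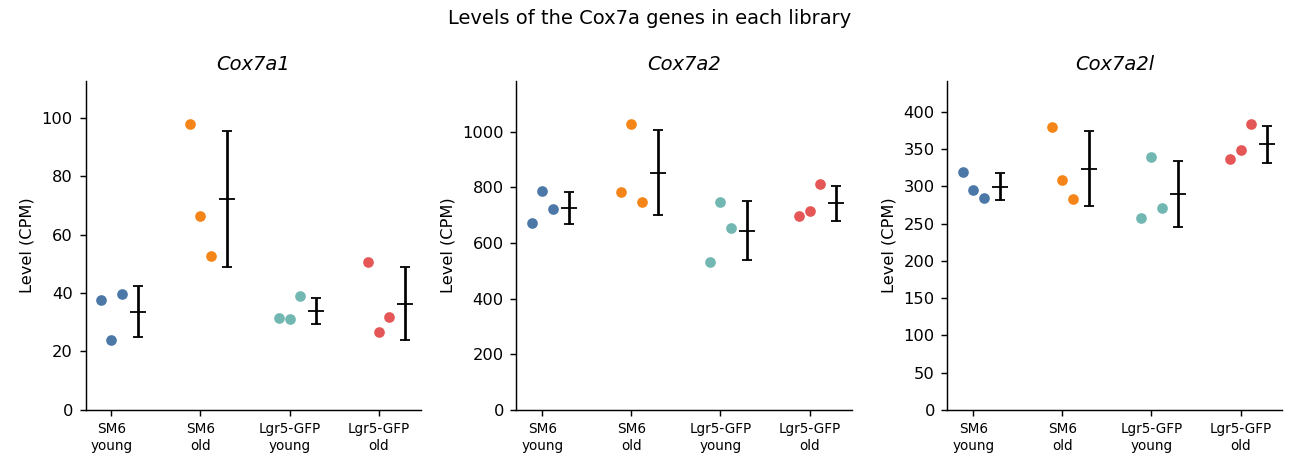
Level in CPM (y axis, from 0) of Cox7a1, Cox7a2 and Cox7a2l in the 12 libraries (coloured points), with the mean and SD (n = 3) of each group in black. The 3 SM6 old libraries of Cox7a1 lie above all other libraries, whereas old and young overlap for Cox7a2 and Cox7a2l in both isolations.

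Complex V, the ATP synthase, uses the proton gradient to make ATP. In SM6, 16 of its 17 tested genes were above 0, with a median of 0.21, and in 5 the old libraries all lay above the young ones, against 7.75% of all tested genes. In Lgr5-GFP 14 were above 0, with a median of 0.08, and in 0 did they all lie above, against 6.6%. Atp5e, the epsilon subunit of the central stalk, was measured at 636, 525 and 559.7 CPM (young) and 800.2, 700.3 and 788 (old) with SM6, and 416, 556 and 577 (young) and 684, 524 and 678 (old) with Lgr5-GFP. Old lay above young in SM6 and overlapped it in Lgr5-GFP, with log2 fold changes of 0.41 (SE 0.17, edgeR adjusted p = 0.272) in SM6 and 0.35 (SE 0.12, edgeR adjusted p = 0.155) on average. The subunits that bind nucleotides, Atp5a1 (alpha) and Atp5b (beta), had averages of 0.19 (SE 0.10) and 0.17 (SE 0.12). Subunit c of the rotor ring is encoded by several genes with the same mature protein. Of these, Atp5g1 and Atp5g3 had averages of 0.16 (SE 0.11) and 0.26 (SE 0.13), and Atp5g2 stood at a mean of 3.62 CPM, with 0.02 (SE 0.49). The lowest values were those of Atp5s in SM6, -0.09 (SE 0.29), which had the highest value in Lgr5-GFP, 0.50 (SE 0.29, edgeR adjusted p = 0.615), and of Atp5j in Lgr5-GFP, -0.14 (SE 0.15), and on average, -0.06 (SE 0.11).

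Some members ended in sequence that reads cannot tell from that of other genes, among them several of low level. The last 500 bases of each transcript were cut into windows of 72 bases, and windows found in another annotated transcript and bases under an exon of another gene on either strand were counted. Of the 10 tested genes under a mean of 50 CPM, 4 had windows shared with another gene: Atp5g2 in 100% of its windows, Atp5l in 70.9%, Ndufs3 in 46.4% and Ndufs5 in 35.4%. A further 3 lay under an exon of the other strand: Uqcrc2 over 100% of these bases, Cox5a over 53.8% and Ndufb6 over 51.4%. Cox7a1, Cox6b2 and Atp5s had neither. Among all 80, windows were shared by 24 genes and included Cox7c, with 55.5%, so that counts of these genes are uncertain. Ndufb9, named above for both isolations, was among them with 25.4%, and an exon of another gene on the same strand covered 36.0% of its bases. Such exons also covered 47.0% in the tested Atp5o, 31.9% in Ndufb2 and 26.8% in Ndufb8. Uqcrc2, a core protein of complex III, had log2 fold changes of -0.14 (SE 0.38) in SM6, -0.07 (SE 0.40) in Lgr5-GFP and -0.11 (SE 0.27) on average, and Cox5a, a matrix-side subunit of complex IV, had an average of 0.23 (SE 0.21). Whether the counting used strand, and how it treated reads with several matches, is not given in the sources used here, and the part of this in the levels was not tested.

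The promoters were read for the letters of factors known to control respiratory genes, because most members had values of the same sign in SM6. These sequences come from RefSeq on GRCm38.p6, from 250 bases before to 50 bases after the start, and 67 of the 80 tested genes had one. The 10-letter palindromic core of nuclear respiratory factor 1 (NRF1), or the same core with 1 letter exchanged, searched on both strands, was found in 10 of the 67 (14.9%), against 5.87% of the 9513 tested genes with such a window and 3.54% of the 17491 protein-coding genes. For the other motifs, CCGGAAG of GABPA was in 16 (23.9% against 20.9% of tested genes), the core of YY1 in 5 (7.46% against 2.47%), TGACGTCA of CREB in 5 (7.46% against 3.77%) and TCAAGGTCA of ESRRA in 2 (2.99% against 0.294%). None of these motifs contains another, and a match of letters shows no binding. The genes with the NRF1 core were Ndufa6, Ndufa11, Ndufb4, Sdhd, Uqcrc1, Cox6a1, Atp5c1, Atp5g2, Atp5k and Atp5o. The stretches before the start that no annotated exon covers are shown for Ndufa11 (chr17:56717686-56717761, plus strand), Ndufb4 (chr16:37654454-37654618, minus strand) and Cox6a1 (chr5:115348982-115349129, minus strand), with the NRF1 core in capitals, and for Cox7a1 (chr7:30183921-30184143, plus strand), the called gene, whose window holds none of the 5 motifs.
Ndufa11: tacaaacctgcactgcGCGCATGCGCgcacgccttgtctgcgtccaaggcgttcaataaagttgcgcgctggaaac
Ndufb4: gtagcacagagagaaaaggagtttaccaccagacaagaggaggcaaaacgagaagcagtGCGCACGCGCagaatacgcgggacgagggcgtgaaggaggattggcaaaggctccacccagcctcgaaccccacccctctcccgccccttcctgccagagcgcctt
Cox6a1: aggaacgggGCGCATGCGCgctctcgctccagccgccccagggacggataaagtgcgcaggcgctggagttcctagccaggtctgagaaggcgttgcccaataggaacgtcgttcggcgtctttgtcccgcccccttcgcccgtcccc
Cox7a1: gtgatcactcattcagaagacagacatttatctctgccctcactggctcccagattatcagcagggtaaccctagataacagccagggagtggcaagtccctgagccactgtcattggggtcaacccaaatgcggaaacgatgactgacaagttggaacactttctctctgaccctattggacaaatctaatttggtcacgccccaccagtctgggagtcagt

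Other genes of the pathway were read from lists beside these members. Of 13 mitochondrially encoded proteins of the chain, 8 were tested and 0 called in either isolation by edgeR, with 0 in SM6 and 3 in Lgr5-GFP at an unadjusted p under 0.05, against 13.1% and 9.78% of all tested genes. With SM6 their median was 0.18 and 8 of 8 were above 0, and with Lgr5-GFP it was 0.39 and 7 were. The other 5, mt-Nd4l, mt-Co2, mt-Co3, mt-Atp6 and mt-Atp8, had less than 1 CPM in every library, so that sums over the 13 rest in effect on the 8 tested genes. Sequence shared with other genes was examined for the nuclear members only, and the reason for these low counts was not tested. The largest value in Lgr5-GFP was that of mt-Co1, the catalytic subunit of complex IV, at 406, 443 and 441 CPM in young and 698, 548 and 674 in old. These libraries did not overlap, and the log2 fold change was 0.57 (SE 0.18, edgeR adjusted p = 0.206). The ratio of the summed levels of the 87 nuclear genes to those of the 13 mitochondrial ones was 1.89 ± 0.0709 (young) and 1.98 ± 0.250 (old) with SM6, and 1.67 ± 0.192 (young) and 1.78 ± 0.363 (old) with Lgr5-GFP (SD, n = 3), and overlapped between the ages in both isolations.

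Assembly factors, which build the complexes but are no part of them, lay close to all tested genes. Of 50, 46 were tested, and their median change was 0.09 with SM6 and -0.01 with Lgr5-GFP. In SM6, 1 was called by edgeR, against 2.42% of all tested genes. This was Timmdc1, an assembly factor of complex I, which fell from 79.9, 101 and 92.9 CPM to 24.9, 31.8 and 48.6, a log2 fold change of -1.38 (SE 0.25, edgeR adjusted p = 0.00284). In Lgr5-GFP it was at 58.1, 71.7 and 85.4 CPM in young and 41.2, 67.3 and 35.6 in old, with -0.57 (SE 0.25, edgeR adjusted p = 0.434) and some overlap. Its direction was thus opposite to that of most complex I subunits in SM6. Among 12 regulators of mitochondrial biogenesis, 11 were tested and 0 called in either isolation by edgeR, with 2 and 0 at an unadjusted p under 0.05, against 13.1% and 9.78% of all tested genes, and their median was -0.29 with SM6 and -0.06 with Lgr5-GFP. The 2 were Esrra, at -0.83 (SE 0.32, edgeR adjusted p = 0.22), and Gabpb1, at -0.83 (SE 0.37, edgeR adjusted p = 0.334), both known as transcription regulators of respiratory genes, which were named here after their values were seen. Nrf1, whose core stands in the promoters above, had 0.05 (SE 0.28) in SM6 and -0.32 (SE 0.28) in Lgr5-GFP. The 14 citric acid cycle genes had a median of 0.12 with SM6 and 0.03 with Lgr5-GFP, and glycolysis genes had 0.21 and -0.14 over 14 tested, with 0 called in either list and isolation by edgeR.

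**Figure D4:**
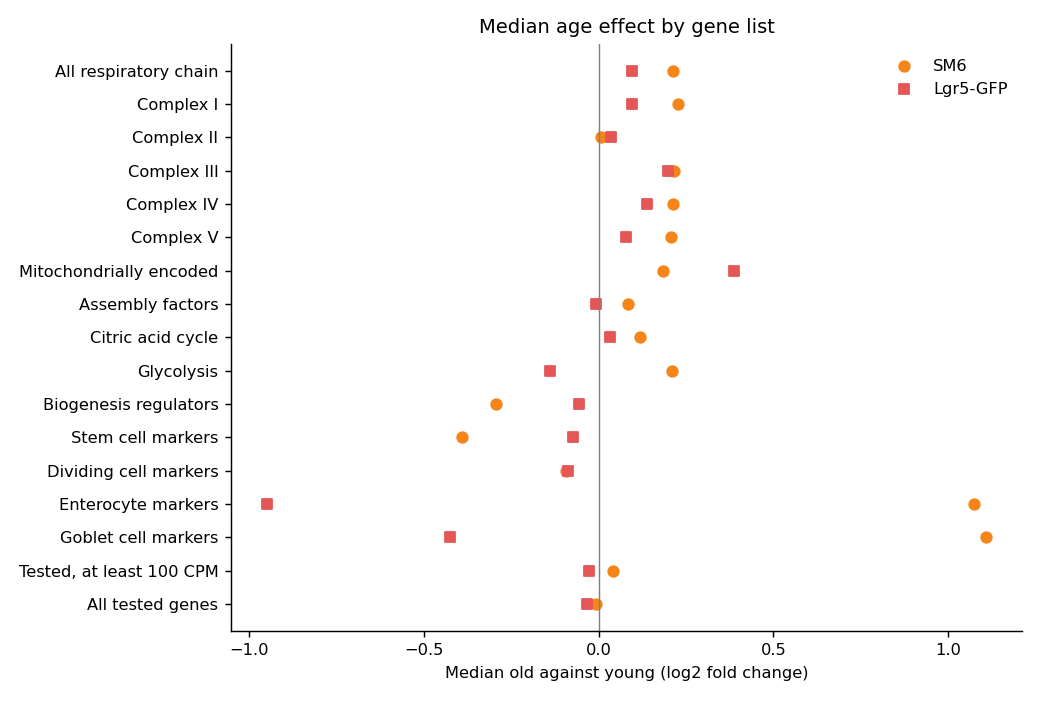
Median log2 fold change of old against young (x axis) over the tested genes of each list, in SM6 (circles) and Lgr5-GFP (squares). Complexes I, III, IV and V lie between 0.21 and 0.23 in SM6, near glycolysis (0.21) and the mitochondrially encoded genes (0.18), whereas enterocyte and goblet cell markers lie above 1 in SM6 and below 0 in Lgr5-GFP.

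Markers of cell types were read beside the respiratory chain. In SM6 the medians were 1.08 over 13 enterocyte genes, with 5 called higher, 1.11 over 8 goblet cell genes, with 5 called higher, 2.10 over 10 Paneth cell genes, with 1 called higher, and 0.53 over 8 enteroendocrine genes, with 1 called higher, where edgeR called 0.643% of all tested genes higher. The Paneth median rested on SM6 old replicate 3: without it the median was 0.26, with 0 called, whereas the enterocyte and goblet medians were 1.37 and 1.31, with 7 and 5 called higher. The enteroendocrine median was 0.22 without SM6 old replicate 3, with 0 called. It was 0.22 without SM6 old replicate 2 and 0.92 without SM6 old replicate 1, with 1 called in each. The Paneth genes summed to 88014, 35851 and 12849 CPM in SM6 young and 54748, 53898 and 329780.1 in SM6 old. Over each library left out in turn, the enterocyte calls ran from 0 (without SM6 old replicate 1 or SM6 young replicate 2) to 7 and the goblet calls from 1 (without SM6 young replicate 2) to 5. The 11 stem cell genes had a median of -0.39, with 3 called lower, against 1.77% of all tested genes, and their summed level was 13137, 16268 and 15487 CPM in young and 8341, 8723 and 9510.4 in old, without overlap. In Lgr5-GFP the medians were -0.95 for enterocyte, -0.43 for goblet, -2.80 for Paneth, -0.89 for enteroendocrine and -0.07 for stem cell genes, with 3, 0, 4, 0 and 0 called lower, against 0.299% of all tested genes. Without Lgr5-GFP young replicate 1 the Paneth and enteroendocrine medians were -1.72 and -0.16, with 0 called in either list. The enterocyte median ran from -1.10 (without Lgr5-GFP young replicate 2) to -0.60 (without Lgr5-GFP young replicate 3). The goblet median ran from -0.63 to -0.24 (without Lgr5-GFP old replicates 1 and 3). The stem cell median ran from -0.20 (without Lgr5-GFP young replicate 3) to -0.02 (without Lgr5-GFP old replicate 2). With 1 library left out the Paneth calls in Lgr5-GFP ran from 0 to 9 (0 without Lgr5-GFP old replicate 1 or 3 as well, 9 without Lgr5-GFP young replicate 3 or SM6 old replicate 3), and the enterocyte calls from 0 to 4, readings that were chosen after seeing the data. With the enterocyte level as a covariate the median of the 80 genes was 0.26 in SM6 and 0.14 in Lgr5-GFP and, once the share of defensins entered as covariate, 0.27 and 0.00025. The part of these cells in the results was not tested beyond these fits.

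At a given age, no gene of the chain passed the test between the isolations. In young ISCs, Lgr5-GFP was above SM6 in 36 genes and below in 44, while 49.1% of all tested genes were above, with a median of -0.01, against -0.01 over all tested genes. The direction turned with the library omitted: omitting Lgr5-GFP young replicate 1 left 56 above and a median of 0.059, and omitting Lgr5-GFP young replicate 2 left 21 above and a median of -0.082. By edgeR 0 genes were called, against 0.0898% of all tested genes, and 0 had an unadjusted p under 0.05, against 7.48%. DESeq2 and limma-voom also called 0, against 0.232% and 0.165%. In Ndufb9 and Sdhb all Lgr5-GFP libraries lay below, against 7.35% of all tested genes, and in Atp5a1 all lay above, against 6.39%. Without Lgr5-GFP young replicate 1, 15 genes lay above, or 18.75%, against 11.1% of all tested genes and 14.6% of those with at least 100 CPM. Without Lgr5-GFP young replicate 2, 13 lay below, or 16.25%, against 11.3% and 18.7%. In old ISCs, Lgr5-GFP was below SM6 in 68 genes and above in 12, while 49.9% of all tested genes were above, with a median of -0.13 against 0.00, though with library totals alone the median was 0.07, that of all tested genes being 0.21, and in 12 all libraries lay below, against 7.4% of all tested genes and 10.9% of those with at least 100 CPM. Omitting SM6 old replicate 3 left 12 above 0 with a median of -0.18, and in 33 genes, or 41.2%, all libraries lay below, against 13.9% of all tested genes and 23.0% of those with at least 100 CPM at that setting. Omitting SM6 old replicate 2 took the median to -0.076 with 24 above 0, and omitting Lgr5-GFP old replicate 2 took it to -0.077 with 20 above 0. Here too edgeR, DESeq2 and limma-voom called 0 genes, against 0.718%, 0.898% and 0.643% of all tested genes, and 3 had an unadjusted p under 0.05, against 9.4%, Ndufs5, Ndufs8 and Cox7a1. The log2 difference of Cox7a1 was -0.97 (SE 0.27, edgeR adjusted p = 0.112). Markers of cell types were read in the same comparisons. In old ISCs the median differences were -1.99 over 8 goblet cell genes, with 6 called lower in Lgr5-GFP (0.673% of all tested genes were called lower), -2.63 over 8 enteroendocrine genes, with 6 called lower, -1.18 over 13 enterocyte genes, with 6 called lower, -2.80 over 10 Paneth cell genes, with 2 called lower, and 0.27 over 11 stem cell genes, with 1 called higher, against 0.0449%. Without SM6 old replicate 3 the Paneth median was -1.03, with 0 called, and the Paneth calls ran from 0 to 9 with 1 library left out. In young ISCs they were -0.12, -1.44, 0.58, 2.35 and -0.02 in the same order, with 2 enteroendocrine genes called lower, against 0.0374% of all tested genes, and 0 genes called in the other lists. Without Lgr5-GFP young replicate 1 the Paneth median was 0.99, and without SM6 old replicate 3, 6 Paneth genes were called higher, against 0.203% of all tested genes. The enterocyte median was 0.13 without Lgr5-GFP young replicate 3. The goblet median ran from -0.38 (without Lgr5-GFP young replicate 1) to 0.026 (without SM6 young replicate 1). The median of the 80 genes at 22 months was -0.15 with the enterocyte level and -0.22 with the defensin share as covariate, and beyond these fits the part of these cells was not tested.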

How the data were processed

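Per the labels and the methods of the study, reads were placed on GRCm38 by STAR 2.4.2a and counted over the exons of GENCODE vM15 by featureCounts. The values deposited by the authors are these raw counts. Reads carried molecular identifiers, but whether they were collapsed is not stated, and no counting intervals are given. All columns of values were used. Symbols and positions came from GENCODE vM21, which matched 54165 of the 54232 gene identifiers.

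Genes with more than 5 reads and at least 1 CPM in at least 1 library were kept, a filter taken from the methods of the study, which left 13368. Counts were fitted in R 4.3.3 with edgeR 4.0.16 (quasi-likelihood, TMM scaling, 1 mean per group over all 12 libraries, common dispersion 0.0434). All tests were two-sided. Benjamini-Hochberg adjustment covered all 13368 genes, with calls made at an adjusted p under 0.05. Standard errors were derived from the fold change and its F statistic. P-values measure the spread between 3 mice a group. DESeq2 1.42.0, limma 3.58.1 (voom with quality weights), other scalings, filters and covariates, a replicate block and leaving out each library were alternatives. Plots used matplotlib 3.10.9 under Python 3.11.15.

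The members and lists were chosen with earlier results of these data known, so counts and medians over them carry no p. Genes named were the called ones, the largest and smallest of each complex in the age comparisons, the tissue isoforms and the catalytic subunits. For 1 gene under this rule, the result is not reported here. Complexes were compared by description only. Levels are not compared between genes.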

Additional observations from a re-analysis of the deposited data

Results flagged for a closer look

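Genes with names of the same families that are not annotated as protein-coding were left out of the comparisons above, but 9 of the 12 reached more than 3 counts in at least 1 library. Over the 12 libraries, Ndufb1-ps, annotated as a noncoding RNA from a bidirectional promoter, had 8606 counts, from 476 to 1120 per library. The others are annotated as processed pseudogenes. Their totals were 382 counts for Ndufb4c, 170 for Ndufs6b, 158 for Cox6c2, 111 for Atp5k-ps2, 98 for Uqcrh-ps2, 79 for Atp5l-ps2, 68 for Atp5c1-ps and 20 for Uqcrh-ps1. Reads of such copies and of their parent genes can be alike, and whether these counts come from the copies was not tested.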

How the results depend on the processing

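The median age effect of the tested members stayed above 0 in both isolations under every alternative run, at 0.070 to 0.27 in SM6 and 0.00025 to 0.28 in Lgr5-GFP. The lowest of these, with the defensin share as a covariate in Lgr5-GFP, had 40 of 80 genes above 0. Members tested were 80, except 79 with edgeR's own filter and 82 with no filter beyond 1 count. With library totals alone, the medians were 0.070 in SM6, 0.28 in Lgr5-GFP, 0.22 for the difference, -0.15 between the isolations at 2 months and 0.071 at 22 months, while those of all tested genes were -0.16, 0.16, 0.35, -0.15 and 0.21, and 75, 3 and 56 genes were above 0 in the last 3 comparisons. With the defensin share as a covariate the median difference was -0.27 (-0.28 relative to all genes) with 10 genes above 0, 56 genes were above 0 between the isolations at 2 months, and 1 gene, Cox7a1, was called at 22 months. Without SM6 old replicate 3 and Lgr5-GFP young replicate 1 together, a choice made after seeing the data, the median difference was -0.24 (-0.27 relative to all genes), and 60 genes were above 0 between the isolations at 2 months. The next counts equal those without SM6 old replicate 3 alone. In SM6, 50 genes were higher in old without overlap, or 62.5%, against 15.3% of all tested genes and 29.0% of those with at least 100 CPM. At 22 months 33 were lower in Lgr5-GFP without overlap, or 41.2%, against 13.9% and 23.0%. With no filter beyond 1 count, 1 gene was called on average and 1 at 22 months, both Cox7a1. On average DESeq2 called 7 genes and limma-voom 6. In SM6 0 genes were called with the enterocyte level as a covariate or with library totals alone.

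Leaving out 1 library at a time gave 0 to 1 calls in SM6 (0 without SM6 old replicate 1, SM6 old replicate 2 or SM6 young replicate 2) and 0 to 1 on average (1, Cox7a1, without SM6 old replicate 3). The count of genes above 0 ran from 21 (without Lgr5-GFP young replicate 2) to 56 (without Lgr5-GFP young replicate 1) between the isolations at 2 months, from 12 to 24 at 22 months (24 without SM6 old replicate 2 and 20 without Lgr5-GFP old replicate 2), and from 14 to 32 for the difference (32, 31 and 30 without SM6 old replicate 2, Lgr5-GFP old replicate 2 and Lgr5-GFP young replicate 2). The median difference relative to all genes ran from -0.21 (without Lgr5-GFP young replicate 1) to -0.031, and the median difference itself from -0.19 to -0.038. The median at 2 months ran from -0.082 to 0.059, and at 22 months it was -0.076 and -0.077 without SM6 old replicate 2 and Lgr5-GFP old replicate 2. Genes higher in old without overlap numbered 28 to 50 in SM6 (50 without SM6 old replicate 3) and 10 to 25 in Lgr5-GFP (25 and 22 without Lgr5-GFP old replicate 2 and Lgr5-GFP young replicate 2). The 50 were 62.5% of the members, against 15.3% of all tested genes and 29.0% of those with at least 100 CPM. The 25 were 31.25%, against 11.6% and 16.5%, and the 22 were 27.5%, against 10.5% and 17.5%. Genes higher in Lgr5-GFP without overlap numbered 1 to 15 at 2 months and 0 to 3 at 22 months. The 15, without Lgr5-GFP young replicate 1, were 18.75% of the members, against 11.1% of all tested genes and 14.6% of those with at least 100 CPM. Genes lower in Lgr5-GFP without overlap numbered 2 to 13 at 2 months (13, 5, 7, 4 and 4 without Lgr5-GFP young replicates 2 and 3 and SM6 young replicates 1, 2 and 3) and 12 to 33 at 22 months (21, 24, 20 and 33 without Lgr5-GFP old replicates 1 and 3 and SM6 old replicates 1 and 3). With 2 libraries left in a group, overlap is less likely by construction: the 13 were 16.2% of the members, against 11.3% of all tested genes and 18.7% of those with at least 100 CPM, and the 33 were 41.2%, against 13.9% and 23.0%. At 2 months the 5, 7, 4 and 4 were 6.25%, 8.75%, 5.0% and 5.0%, below the 13.2%, 13.7%, 11.9% and 12.7% of all tested genes. At 22 months the 21, 24 and 20 were 26.25%, 30.0% and 25.0%. All tested genes gave 12.9%, 11.55% and 11.9% there, and those with at least 100 CPM gave 19.0%, 16.3% and 15.6%.

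Directions of single genes near 0 turned, and the cause was not tested. Ranges given here span each library left out in turn and the pair left out together. Averages turned for Atp5g2, to -0.011 with the defensin covariate, -0.21 with the enterocyte covariate and -0.0023 with no filter beyond 1 count, and it ran -0.17 to 0.38 over these omissions. The average of Ndufs1 was 0.011 under DESeq2, 0.013 with its size factors, 0.0053 with the defensin covariate, 0.083 with the enterocyte covariate, 0.0089 with library totals, 0.013 without the Paneth genes and -0.057 to 0.051 over these omissions. In SM6 Ndufs1 was 0.0076 with the enterocyte covariate and -0.20 to 0.0050 over these omissions. Under limma-voom Uqcrc2 was 0.076 with SM6, 0.10 with Lgr5-GFP and 0.089 on average, with library totals it was 0.13 in Lgr5-GFP, and over these omissions it was -0.44 to 0.25, -0.32 to 0.13 and -0.26 to 0.091. With library totals, Atp5j was 0.045 and Sdha 0.061 in Lgr5-GFP. With the enterocyte covariate, Sdha was 0.045 on average, and Sdhb 0.0029 in SM6 and 0.0031 on average. With the defensin covariate, Cox7b was -0.011 on average and Uqcrh -0.0027 in Lgr5-GFP. Over these omissions, Atp5s was -0.24 to 0.16 and Cox6b2 -0.30 to 0.070 in SM6, Cox6b2 was -1.66 to 0.071 in Lgr5-GFP, and on average Cox7b was -0.048 to 0.16, Ndufa4 -0.0046 to 0.096, Ndufv1 -0.0041 to 0.14 (below 0 only with the pair left out) and Sdha -0.091 to 0.011.

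Replicate numbers do not mark shared mice, and same-numbered libraries correlated at -0.127 to 0.235 over 4773 genes after removal of group means, so they were not taken as pairs. With a replicate block, 1 gene was called in SM6, Cox7a1 (1.11, edgeR adjusted p = 0.0126), 0 were called elsewhere, Uqcrc2 was 0.0047 in Lgr5-GFP, and the medians were 0.21 in SM6 and 0.10 in Lgr5-GFP. Genes of few counts, such as Atp5g2 and Ndufs5, had SEs of 0.49 and 0.38 on average.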
